A study of Mus musculus with 16 samples.

Results

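The genes described here are 37 mouse genes that are induced by type I interferon. They were taken by symbol from a list that was chosen with earlier results of these data known. All 37 were found among the 21804 genes of the count table. Their levels were compared in 16 RNA sequencing libraries of brain tissue from 8 mice on a C57BL/6 background, all aged 4 months. Control animals were Pdgfb ret/wt, with a single copy of the retention allele of the platelet-derived growth factor gene Pdgfb, and the other animals were Pdgfb ret/ret, with the allele on both chromosomes. No wild-type animal was among the libraries, so every group carries the allele. The ret allele lacks the stretch of the protein that retains the growth factor at the vessel wall, and mice with this defect have too few pericytes on brain capillaries. Each animal gave 1 cortex and 1 thalamus library, which makes 4 groups of 4 animals. The thalamus pieces of ret/ret animals were calcifications, found by their own fluorescence under a stereomicroscope. In the thalamus the genotype and this way of choosing tissue cannot be told apart, while the cortex has no calcification in either genotype, per the labels.

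Type I interferons are secreted proteins that signal through a receptor made of Ifnar1 and Ifnar2. The receptor's kinases activate Stat2, which acts with Irf9 in the complex ISGF3, and this complex binds a short element in the promoters of the stimulated genes. Their products detect foreign nucleic acid, block translation or membrane fusion, tag proteins with Isg15, or feed back on the pathway. In brain, endothelial cells, microglia and astrocytes are all known to respond. The 37 genes were read here by role: the IFIT family, the ISG15 system, transcription factors, oligoadenylate synthetases with the kinase PKR, antiviral membrane and nucleotide enzymes, nucleic acid sensors, the PARP group and other induced genes.

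Library totals ran from 13415391 to 29135064 counts, and 3 counts corresponded to 0.103 to 0.224 CPM, the count scaled to library size. That floor covers counting error only, since amplified fragments are not independent molecules. All CPM values below were scaled over the 16 libraries. The deposited values carry no stated length scaling, so levels are compared between libraries and not between genes. Cell markers set some libraries apart. Summed markers of cerebellar neurons reached 1969 CPM in cortex of ret/wt animal 3 and 4404 CPM in cortex of ret/ret animal 2, against 29.4 to 89.2 CPM in the other cortex libraries. Summed choroid plexus markers were at 1127 CPM in cortex of ret/wt animal 4, against 9.93 to 68.4 CPM in the other cortex libraries. Cortical neuron markers summed to 856 to 2714 CPM in cortex and to 128 to 466 CPM in thalamus, which is the order the region labels give. Thalamic neuron markers overlapped between regions, at 418 to 3499 CPM in thalamus and 125 to 917 CPM in cortex, highest there in ret/ret animal 2. In thalamus they were at 3270 CPM in ret/wt animal 3 and 3499 CPM in ret/ret animal 2, against 418 to 1060 CPM in the other libraries. Pdgfb itself was not analysed here.

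The element that ISGF3 and interferon regulatory factors bind is written here as GAAANNGAAA, searched on both strands in the 250 bases before the RefSeq start of each gene (build GRCm38.p6). A RefSeq promoter was matched by symbol for 27 of the 37 genes, and 10 of these 27 held the motif. Over all 27025 genes with a promoter of this length 936 (3.46%) held it. The 10 genes were Bst2, Ifit1, Ifit3, Ifit3b, Isg15, Oas1a, Oas3, Rsad2, Stat2 and Trim30a. The motif TTCNNNGAA, the kind of site bound by STAT dimers, was in 5 of the 27 and in 8.13% of all genes. A match describes the letters of this window and does not show that a factor binds there. The stretches around the matches are printed for the genes whose values are described most closely below, 5′ to 3′ on the strand of the gene, and capitals mark the match on either strand.
Isg15: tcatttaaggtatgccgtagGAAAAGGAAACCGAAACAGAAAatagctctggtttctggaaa
Bst2: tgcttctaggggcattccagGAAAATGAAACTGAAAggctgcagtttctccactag
Ifit1: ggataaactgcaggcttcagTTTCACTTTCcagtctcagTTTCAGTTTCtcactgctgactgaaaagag
Ifit3: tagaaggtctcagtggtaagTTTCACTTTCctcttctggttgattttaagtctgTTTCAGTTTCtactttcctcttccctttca
Ifit3b: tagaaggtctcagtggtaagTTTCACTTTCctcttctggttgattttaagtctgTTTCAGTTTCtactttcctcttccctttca
Rsad2: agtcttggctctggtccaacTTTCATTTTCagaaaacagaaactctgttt
Stat2: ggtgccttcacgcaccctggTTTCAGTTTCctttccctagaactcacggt
The Isg15 stretch (chr4:156200855-156200916 on the - strand) held 3 matches that overlap end to end, the first of them 78 bases before the start. Bst2 (chr8:71537567-71537622 on the - strand) held 2 overlapping matches, and Ifit1 (chr19:34640765-34640833 on the + strand) held 2 separate ones. The stretch of Ifit3 (chr19:34583353-34583436 on the + strand) and that of Ifit3b (chr19:34607749-34607832 on the + strand) are identical over their 84 bases. Rsad2 (chr12:26456543-26456592 on the - strand) and Stat2 (chr10:128270256-128270305 on the + strand) each held 1 match.

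Most of these genes were higher in ret/ret than in ret/wt tissue in both regions, but no single gene passed the adjusted test. In thalamus 35 of the 37 had enough counts to be tested, and 32 of the 35 were higher in ret/ret, where 47.1% of all genes were, with a median log2 fold change of 0.61 against -0.02 over all 14767 genes tested. In cortex all 32 tested genes were higher in ret/ret, where 51.9% of all genes were, with a median log2 fold change of 0.74 against 0.01 over all 14288 genes tested. Of the 32 genes tested in both regions, 30 were higher in both. These counts were the same under 3 other scalings of the libraries. With no filter on counts, 36 of 37 were higher in cortex, and Oas2 was lower. Because the genes were chosen with earlier results of these data known, the shares of all genes give a scale and not an independent test.

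With edgeR's quasi-likelihood test and Benjamini-Hochberg adjustment over all genes tested, 0 of the 35 genes in thalamus and 0 of the 32 in cortex had an adjusted p under 0.05, where 0.0% of all genes passed in thalamus and 0.021% in cortex. At an unadjusted p under 0.05, 7 of the 35 were higher in thalamus, where 3.05% of all genes were, and 12 of the 32 (37.5%) in cortex, where 2.62% were. None was lower at that level, where 0.88% of all genes were in thalamus and 1.14% in cortex, and 4 genes were among them in both regions: Ifit3, Ifit3b, Parp9 and Eif2ak2. The 4 ret/ret libraries lay wholly above the 4 ret/wt libraries for 5 genes in thalamus (14.3%, where this held for 1.86% of all genes) and for 6 in cortex (18.8%, where it held for 1.76%), and wholly below them for 0, against 0.941% and 0.637% of all genes. No gene was apart in both regions. DESeq2 called 1 gene in thalamus, Ifit3b, at an adjusted p of 0.027 and 0 in cortex, and limma-voom called 0 in each. The shares above are those of edgeR, and DESeq2 called more genes over the whole table, as given in the last section. Over all alternatives the adjusted p of Ifit3b in thalamus ran from 0.027 to 1.0.

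**Figure D1:**
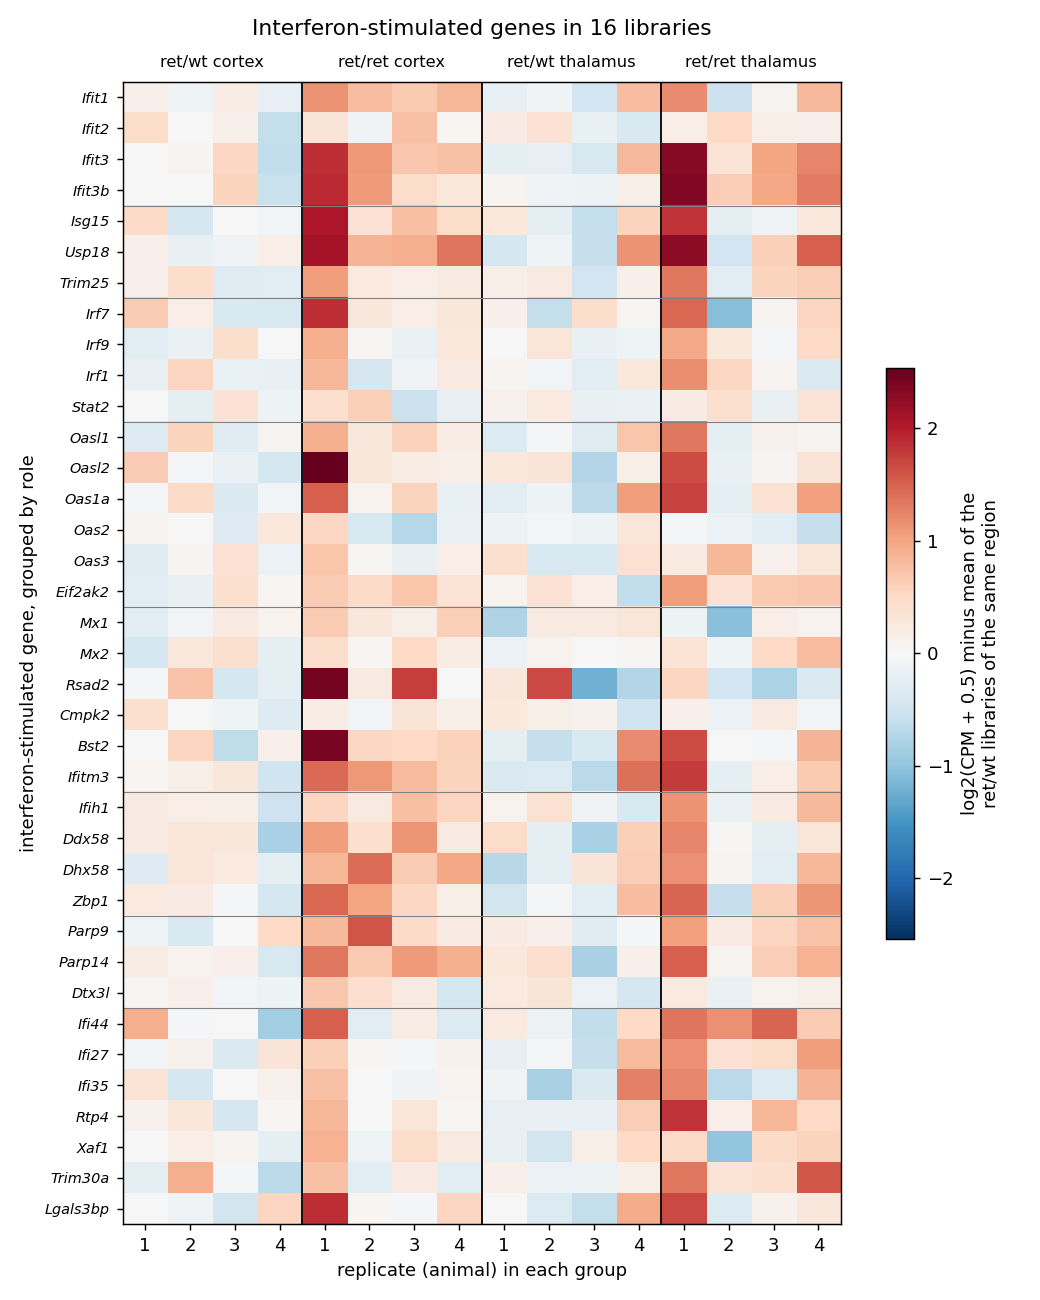
Level of each of the 37 genes in each of the 16 libraries, as log2(CPM + 0.5) minus the mean of the 4 ret/wt libraries of the same region; rows are genes grouped by role, columns are replicates within a group, and red is higher. The columns of ret/ret replicate 1 are the reddest in both regions, and ret/wt thalamus replicate 4 is red for 28 of the 37 genes.

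**Figure D2:**
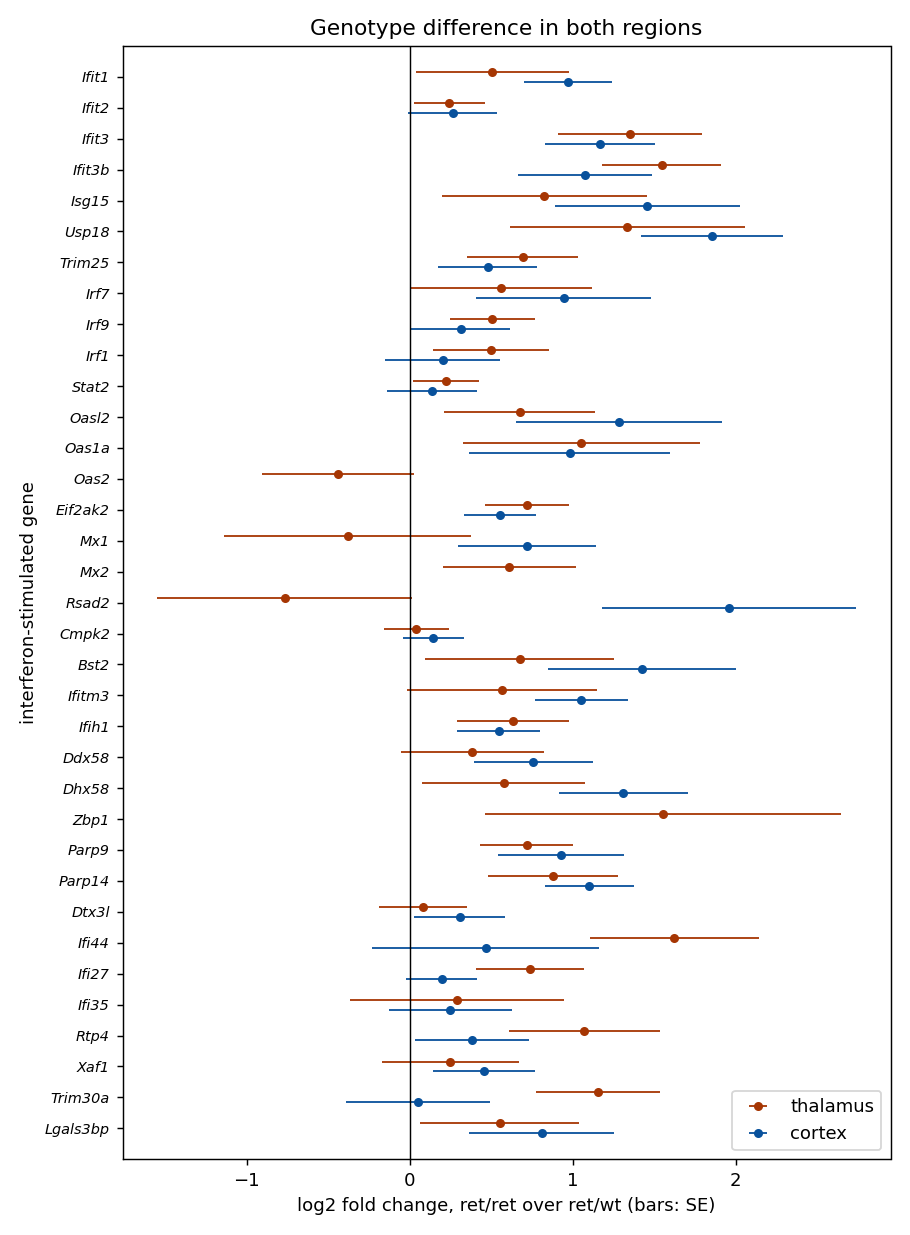
Log2 fold change of ret/ret over ret/wt with its standard error, in thalamus (brown) and cortex (blue), for the 35 genes tested in at least 1 region; Oas2, Mx2 and Zbp1 have no cortex value because they were not tested there. In cortex every point lies right of 0, and in thalamus Rsad2, Oas2 and Mx1 lie left of it.

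The IFIT family consists of cytoplasmic proteins that bind foreign RNA and hold back its translation. All 4 members were higher in ret/ret in each region, with a median log2 fold change of 0.93 in thalamus and 1.02 in cortex. The genes stand side by side on chromosome 19. Ifit3 (ENSMUSG00000074896, chr19:34583531-34588731, + strand) is one of them. In cortex the ret/wt libraries held 10.9, 11.3, 15.7 and 6.83 CPM of Ifit3 and the ret/ret libraries 40.8, 23.4, 17.4 and 18.4 CPM. In thalamus the values were 15.4, 15.6, 13.4 and 32.4 CPM in ret/wt and 90.9, 22.9, 36.2 and 43.3 CPM in ret/ret. In cortex each ret/ret library lay above each ret/wt library, and in thalamus the single ret/wt library of animal 4 lay among the ret/ret values. Its log2 fold change was 1.17 ± 0.34 (SE) in cortex (unadjusted p = 0.0063) and 1.35 ± 0.44 in thalamus (unadjusted p = 0.0121). Ifit3b (ENSMUSG00000062488, chr19:34607970-34613401, + strand) is a close copy of Ifit3. Of the 31-base words of Ifit3 transcripts 61.8% also occur in Ifit3b, so reads may have been split between them and their values are not independent. Its cortex values were 6.10, 6.23, 9.41 and 3.98 CPM in ret/wt and 24.4, 13.5, 8.66 and 7.53 CPM in ret/ret. The thalamus values were 9.14, 8.06, 7.83 and 9.70 CPM in ret/wt and 46.4, 13.6, 17.5 and 22.4 CPM in ret/ret. The thalamus groups did not overlap, and in cortex ret/ret animals 3 and 4 fell below the highest ret/wt value. Its log2 fold change was 1.54 ± 0.37 in thalamus (unadjusted p = 0.0017) and 1.07 ± 0.41 in cortex (unadjusted p = 0.0267). Ifit1 (ENSMUSG00000034459, chr19:34640871-34650009, + strand) recognises RNA whose cap lacks a host methyl group. Ret/wt cortex held 3.21, 2.61, 3.34 and 2.42 CPM of Ifit1, and ret/ret cortex held 6.94, 5.26, 4.86 and 5.58 CPM. Ret/wt thalamus held 3.86, 4.20, 3.07 and 8.12 CPM and ret/ret thalamus 11.04, 2.92, 4.74 and 8.40 CPM. The cortex groups did not overlap, with a log2 fold change of 0.97 ± 0.27 (unadjusted p = 0.0049), while in thalamus they overlapped widely, at 0.51 ± 0.47 (unadjusted p = 0.303). Ifit2, which is present at the same locus, differed less, with log2 fold changes of 0.26 ± 0.27 in cortex and 0.24 ± 0.22 in thalamus, and its groups overlapped in both regions.

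The ISG15 system attaches the ubiquitin-like protein Isg15 to other proteins and takes it off again. Its 3 members were higher in ret/ret in both regions, with a median log2 fold change of 1.46 in cortex and 0.82 in thalamus. Isg15 (ENSMUSG00000035692, chr4:156199424-156200818, - strand) is the modifier itself. Libraries of cortex had 1.25, 0.435, 0.770 and 0.700 CPM of Isg15 in ret/wt and 4.70, 1.12, 1.64 and 1.23 CPM in ret/ret. Those of thalamus had 1.84, 1.16, 0.783 and 2.36 CPM in ret/wt and 6.40, 1.17, 1.32 and 1.84 CPM in ret/ret. In both regions ret/ret animal 1 stood far above all other libraries, and the other 3 ret/ret libraries lay within or near the ret/wt range. Isg15 differed by a log2 fold change of 1.46 ± 0.57 in cortex (unadjusted p = 0.0289) and 0.82 ± 0.63 in thalamus (unadjusted p = 0.218). It was 0.76 in cortex and -0.084 in thalamus with ret/ret animal 1 left out. Usp18 (ENSMUSG00000030107, chr6:121245906-121270917, + strand) removes Isg15 from its targets and also brakes the interferon receptor. In cortex the ret/wt libraries held 0.938, 0.652, 0.727 and 0.969 CPM of Usp18 and the ret/ret libraries 5.20, 1.90, 1.97 and 2.85 CPM. In thalamus the values were 1.03, 1.44, 0.904 and 4.13 CPM in ret/wt and 9.55, 0.987, 2.69 and 5.48 CPM in ret/ret. In cortex the lowest ret/ret value lay well above the highest ret/wt value. Its log2 fold change in cortex was 1.85 ± 0.43, with the smallest unadjusted p of the 32 genes there (0.0018). Adjusted over all genes by Benjamini-Hochberg, edgeR's quasi-likelihood p was 0.64, and it ran from 0.066 to 1.0 over the alternatives. In thalamus it was 1.33 ± 0.72 (unadjusted p = 0.0930), with ret/wt animal 4 above ret/ret animals 2 and 3. Trim25, a ligase that acts on the RNA sensor Ddx58 and in Isg15 transfer, had log2 fold changes of 0.48 ± 0.30 in cortex and 0.69 ± 0.34 in thalamus, with unadjusted p-values of 0.147 and 0.0692.

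The transcription factors of the pathway all had log2 fold changes above 0, and none reached an unadjusted p under 0.05 in either region. Their median log2 fold change was 0.26 in cortex and 0.50 in thalamus. Irf7 (ENSMUSG00000025498, chr7:141262706-141266481, - strand) amplifies the interferon response once induced. Its cortex values were 3.21, 2.17, 1.33 and 1.29 CPM in ret/wt and 8.24, 2.42, 2.19 and 2.40 CPM in ret/ret. The thalamus values were 3.48, 1.88, 4.40 and 3.21 CPM in ret/wt and 9.51, 1.21, 3.33 and 4.76 CPM in ret/ret. Animal 1 was the highest ret/ret value in both regions, and ret/ret animal 2 was the lowest of the 8 thalamus values. Irf7 differed by a log2 fold change of 0.94 ± 0.54 in cortex (unadjusted p = 0.110) and 0.56 ± 0.56 in thalamus (unadjusted p = 0.337). Irf9 (ENSMUSG00000002325, chr14:55603571-55610030, + strand) is the DNA-binding part of ISGF3. Ret/wt cortex held 6.49, 6.95, 10.9 and 7.86 CPM of Irf9, and ret/ret cortex held 15.5, 8.03, 6.94 and 9.54 CPM. Ret/wt thalamus held 10.1, 12.5, 8.74 and 9.24 CPM and ret/ret thalamus 20.1, 12.2, 9.83 and 14.5 CPM. The groups overlapped in both regions, with log2 fold changes of 0.31 ± 0.31 in cortex and 0.51 ± 0.26 in thalamus. Stat2 (ENSMUSG00000040033, chr10:128270559-128292849, + strand) is its activating partner. Libraries of cortex had 23.6, 20.2, 31.1 and 21.9 CPM of Stat2 in ret/wt and 32.4, 36.4, 16.3 and 20.6 CPM in ret/ret. Those of thalamus had 22.7, 25.1, 18.4 and 18.5 CPM in ret/wt and 24.5, 27.9, 18.4 and 26.7 CPM in ret/ret. Values of both genotypes covered nearly the same range, and the log2 fold change was 0.13 ± 0.28 in cortex and 0.22 ± 0.20 in thalamus. Irf1, which type I and type II interferon both induce, had log2 fold changes of 0.20 ± 0.35 in cortex and 0.50 ± 0.36 in thalamus.

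The oligoadenylate synthetases make the short adenosine chains that switch on the nuclease RNase L, and the kinase PKR, encoded by Eif2ak2, stops translation when it meets double-stranded RNA. Among these 6 genes 1 had an unadjusted p under 0.05 in either region, Eif2ak2 (ENSMUSG00000024079, chr17:78852564-78882573, - strand). In cortex the ret/wt libraries held 7.35, 7.82, 12.2 and 9.42 CPM of Eif2ak2 and the ret/ret libraries 14.5, 12.9, 14.98 and 11.6 CPM. In thalamus the values were 11.4, 13.9, 12.1 and 6.81 CPM in ret/wt and 23.0, 13.9, 17.3 and 17.4 CPM in ret/ret. In thalamus the lowest ret/ret value, 13.95 CPM, lay just above the highest ret/wt value, 13.92 CPM, and in cortex ret/ret animal 4 fell below ret/wt animal 3. The log2 fold change was 0.55 ± 0.22 in cortex (unadjusted p = 0.0318) and 0.72 ± 0.26 in thalamus (unadjusted p = 0.0187). Oasl2 and Oas1a were higher in ret/ret in both regions, with log2 fold changes of 1.28 ± 0.63 and 0.98 ± 0.62 in cortex and 0.67 ± 0.46 and 1.05 ± 0.73 in thalamus. Leaving out ret/ret animal 1 took Oasl2 to 0.18 in cortex and 0.041 in thalamus, and Oas1a to 0.30 and 0.48. The unadjusted p-values of both genes were 0.070 to 0.179, and Oas1a shares 68.7% of its 31-base words with Oas1g. Oas2 was tested in thalamus alone, at -0.44 ± 0.47. In cortex its mean was also lower in ret/ret, at 0.424 CPM against 0.513 CPM in ret/wt. Oasl1 and Oas3 were tested in neither region, with group means of 0.125 to 0.755 CPM.

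The antiviral membrane proteins and nucleotide enzymes were higher in ret/ret for 5 of 5 tested genes in cortex and for 4 of 6 in thalamus. Ifitm3 (ENSMUSG00000025492, chr7:141009586-141010770, - strand) stops viruses from fusing with endosomes. Its cortex values were 5.47, 5.87, 6.55 and 3.55 CPM in ret/wt and 14.96, 11.8, 9.46 and 8.04 CPM in ret/ret. The thalamus values were 6.14, 6.19, 4.82 and 22.1 CPM in ret/wt and 28.6, 6.82, 9.14 and 13.1 CPM in ret/ret. The cortex groups did not overlap, and in thalamus ret/wt animal 4 was exceeded by ret/ret animal 1 alone. For Ifitm3 the log2 fold change was 1.05 ± 0.29 in cortex (unadjusted p = 0.0045) and 0.57 ± 0.58 in thalamus (unadjusted p = 0.355), and without ret/ret animal 1 the thalamus value was -0.022. Bst2 (ENSMUSG00000046718, chr8:71534255-71537456, - strand), or tetherin, holds budding virus at the cell surface. Ret/wt cortex held 1.72, 2.75, 0.941 and 1.94 CPM of Bst2, and ret/ret cortex held 11.3, 2.72, 2.67 and 2.85 CPM. Ret/wt thalamus held 2.53, 1.88, 2.23 and 7.67 CPM and ret/ret thalamus 10.7, 3.05, 2.93 and 5.94 CPM. Apart from animal 1 the ret/ret cortex values lay close to the highest ret/wt value, 2.75 CPM. Bst2 differed by a log2 fold change of 1.42 ± 0.58 in cortex (unadjusted p = 0.0339), 0.59 without ret/ret animal 1, and 0.67 ± 0.58 in thalamus (unadjusted p = 0.272). Rsad2 (ENSMUSG00000020641, chr12:26442746-26456452, - strand), or viperin, makes a nucleotide that ends viral RNA chains. Libraries of cortex had 0.547, 1.30, 0.299 and 0.430 CPM of Rsad2 in ret/wt and 5.35, 0.777, 3.18 and 0.584 CPM in ret/ret. Those of thalamus had 2.15, 6.41, 0.422 and 0.786 CPM in ret/wt and 2.66, 1.03, 0.734 and 1.18 CPM in ret/ret. In cortex ret/ret animals 1 and 3 were high and animals 2 and 4 were within the ret/wt range, and in thalamus the highest value was that of ret/wt animal 2. For Rsad2 the log2 fold change was 1.96 ± 0.78 in cortex (unadjusted p = 0.0308) and -0.77 ± 0.78 in thalamus (unadjusted p = 0.348), and without ret/wt animal 2 the thalamus value was 0.34. Cmpk2, the neighbour of Rsad2 on chromosome 12 and a mitochondrial nucleotide kinase, had log2 fold changes of 0.14 ± 0.19 and 0.04 ± 0.20 in cortex and thalamus. The Mx genes encode dynamin-like GTPases that trap viral parts. Mx1 was at 0.72 ± 0.42 in cortex and -0.38 ± 0.76 in thalamus, and Mx2, annotated as a polymorphic pseudogene, was tested in thalamus alone, at 0.61 ± 0.41.

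The nucleic acid sensors find foreign or misplaced RNA and DNA and start interferon production. All 3 tested in cortex and all 4 tested in thalamus were higher in ret/ret, with medians of 0.76 and 0.60 on the log2 scale. Dhx58 (ENSMUSG00000017830, chr11:100694884-100704271, - strand), or LGP2, tunes the sensor Ifih1. In cortex the ret/wt libraries held 0.625, 1.23, 1.16 and 0.700 CPM of Dhx58 and the ret/ret libraries 2.02, 3.24, 1.68 and 2.27 CPM. In thalamus the values were 1.16, 1.82, 2.89 and 3.67 CPM in ret/wt and 5.59, 2.33, 1.76 and 4.36 CPM in ret/ret. In cortex the groups did not overlap, and the log2 fold change was 1.31 ± 0.40 (unadjusted p = 0.0081). In thalamus ret/ret animals 2 and 3 lay inside the ret/wt range, and it was 0.58 ± 0.50 (unadjusted p = 0.275). The RNA sensors Ifih1 (MDA5) and Ddx58 (RIG-I) had log2 fold changes of 0.55 ± 0.25 and 0.76 ± 0.36 in cortex and 0.63 ± 0.34 and 0.38 ± 0.44 in thalamus. Zbp1, a sensor of left-handed nucleic acid, was at 1.58, 0, 0.636 and 1.13 CPM in ret/ret thalamus and 0.0429, 0.221, 0.120 and 0.786 CPM in ret/wt thalamus, so several libraries lay below the level of 3 counts.

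Parp9 and its ligase partner Dtx3l modify histones and viral proteins, and Parp14 is a related ADP-ribosyltransferase. All 3 were higher in ret/ret in both regions, and 2 had an unadjusted p under 0.05 in cortex and 1 in thalamus. Parp14 (ENSMUSG00000034422, chr16:35832874-35871544, - strand) lies in the same cluster on chromosome 16. Its cortex values were 4.22, 3.91, 4.02 and 2.64 CPM in ret/wt and 10.1, 6.08, 8.26 and 7.20 CPM in ret/ret. The thalamus values were 5.71, 6.41, 2.41 and 5.11 CPM in ret/wt and 14.2, 4.89, 7.48 and 9.02 CPM in ret/ret. The cortex groups did not overlap, with a log2 fold change of 1.10 ± 0.27 (unadjusted p = 0.0025). In thalamus ret/ret animal 2 lay below 3 of the 4 ret/wt values, and it was 0.88 ± 0.40 (unadjusted p = 0.0521). Parp9 (ENSMUSG00000022906, chr16:35938470-35972605, + strand) overlaps Dtx3l by 682 bases on the opposite strand, and no source used here states whether reads were counted by strand. Ret/wt cortex held 3.21, 2.54, 3.47 and 5.11 CPM of Parp9, and ret/ret cortex held 6.50, 11.48, 5.04 and 4.09 CPM. Ret/wt thalamus held 5.15, 4.86, 3.44 and 4.33 CPM and ret/ret thalamus 9.51, 5.16, 6.65 and 7.53 CPM. In thalamus the lowest ret/ret value, 5.159 CPM, lay just above the highest ret/wt value, 5.149 CPM, and in cortex animal 2 was the highest. The log2 fold change was 0.93 ± 0.39 in cortex (unadjusted p = 0.0382) and 0.72 ± 0.29 in thalamus (unadjusted p = 0.0301), while Dtx3l was at 0.31 ± 0.28 and 0.08 ± 0.27.

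The 7 other induced genes were all higher in ret/ret in both regions, with a median log2 fold change of 0.74 in thalamus and 0.38 in cortex. In thalamus 3 of them had an unadjusted p under 0.05, and in cortex 0 did. With ret/ret animal 1 left out 5 of the 7 were higher in thalamus (median 0.56) and 4 of the 7 in cortex (median 0.022). Ifi44 (ENSMUSG00000028037, chr3:151730922-151749960, - strand) is widely used as a marker of the response. Libraries of cortex had 2.58, 1.09, 1.11 and 0.377 CPM of Ifi44 in ret/wt and 4.12, 0.820, 1.35 and 0.778 CPM in ret/ret. Those of thalamus had 0.858, 0.552, 0.241 and 1.11 CPM in ret/wt and 2.43, 2.06, 2.69 and 1.28 CPM in ret/ret. The thalamus groups did not overlap, with a log2 fold change of 1.62 ± 0.52 (unadjusted p = 0.0106). In cortex they overlapped, at 0.47 ± 0.70, and without ret/ret animal 1 the cortex value was -0.36. Trim30a (ENSMUSG00000030921, chr7:104409025-104465193, - strand), a ligase that restrains inflammatory signalling, was at 7.34, 3.45, 3.62 and 8.76 CPM in ret/ret thalamus and 2.92, 2.32, 2.35 and 2.95 CPM in ret/wt thalamus, again without overlap. Its log2 fold change was 1.15 ± 0.38 there (unadjusted p = 0.0123) and 0.05 ± 0.44 in cortex. Rtp4 (ENSMUSG00000033355, chr16:23520291-23614222, + strand), a chaperone of receptors, was at 10.4, 2.96, 5.04 and 3.84 CPM in ret/ret thalamus and 2.15, 2.15, 2.17 and 4.26 CPM in ret/wt thalamus. Here ret/wt animal 4 lay among the ret/ret values, and the log2 fold change was 1.07 ± 0.46 (unadjusted p = 0.0427), against 0.38 ± 0.35 in cortex. The remaining 4 genes, Ifi27, Ifi35, Xaf1 and Lgals3bp, ran from 0.25 to 0.74 in thalamus and from 0.19 to 0.81 in cortex, and none had an unadjusted p under 0.05.

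**Figure D3:**
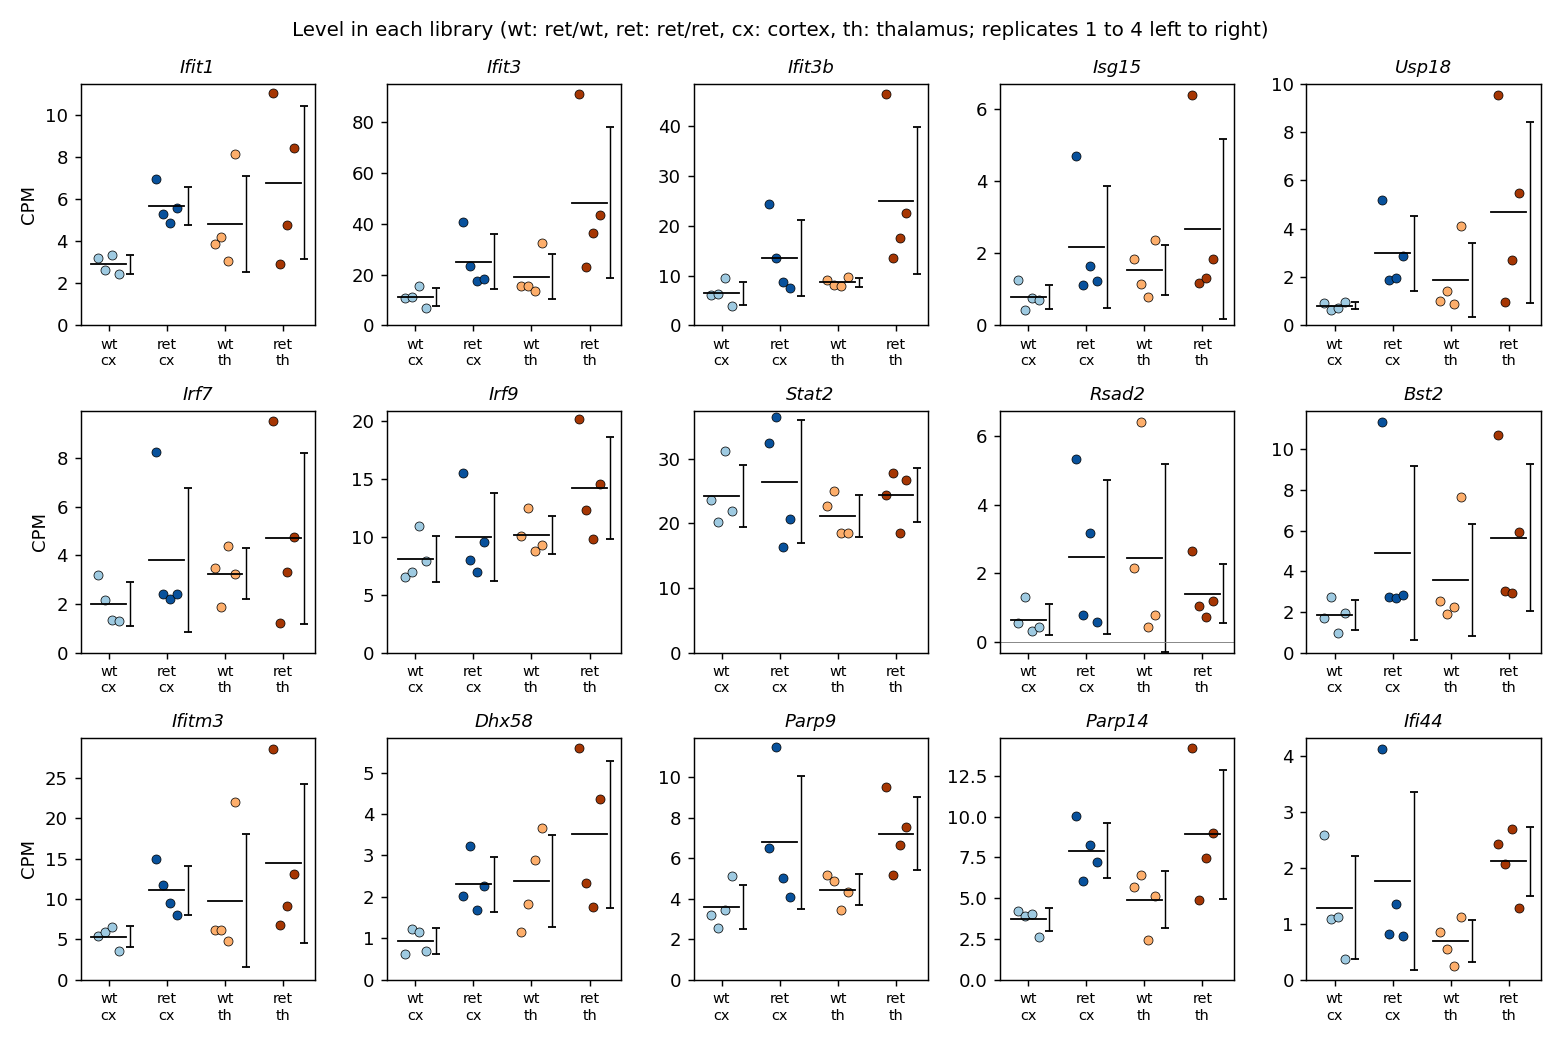
CPM of 15 genes in each library, with points for replicates 1 to 4 from left to right, a line at the group mean and a bar of SD; the panel of Rsad2 starts below 0 because its bar does. In most panels the first point of each ret/ret group is the highest, and in the ret/wt thalamus the last point stands out for Ifit1, Ifit3, Usp18, Bst2 and Ifitm3.

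To treat each animal once, the counts of its 2 libraries were summed and the 4 ret/ret animals compared with the 4 ret/wt animals. All 37 genes were then tested, and 36 were higher in ret/ret, where 46.6% of all genes were, with a median log2 fold change of 0.66 against -0.02 over all 15505 genes. At an unadjusted p under 0.05, 13 genes were higher (35.1%, where 3.62% of all genes were) and 0 lower (1.51% of all genes). For 6 the ret/ret animals lay wholly above the ret/wt animals (16.2%, where this held for 2.15% of all genes), and for 0 wholly below (0.871%). With edgeR's quasi-likelihood test 0 had an adjusted p under 0.05, where 0.0129% of all genes did. The 6 without overlap were Ifit3, Ifit3b, Eif2ak2, Parp9, Parp14 and Zbp1, the last of them named after its values were seen. Ifit3 had a log2 fold change of 1.33 ± 0.34 and Ifit3b of 1.38 ± 0.35, with unadjusted p-values of 0.0027 and 0.0026. DESeq2 called these 2 genes, at adjusted p-values of 0.0185 and 0.0194, and limma-voom called 0. Here too DESeq2 called more genes over the whole table than edgeR did. The gene lower in ret/ret was Oas2, at -0.43 ± 0.44.

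The 4 ret/ret animals were not alike. For each library the median over the 37 genes of the log2 distance from the ret/wt mean of its region was taken. In cortex it was 1.14, 0.38, 0.51 and 0.27 in ret/ret animals 1 to 4, and -0.28 to 0.12 in ret/wt. In thalamus it was 1.34, -0.15, 0.26 and 0.70 in ret/ret, and -0.40 to 0.55 in ret/wt. Animal 1 was thus the highest ret/ret animal in both regions, and the groups were apart in cortex and overlapped in thalamus. Animal 1 held the highest of the 4 ret/ret values for 28 genes in cortex and for 28 in thalamus, 23 of them in both regions. The upper end of the ret/wt thalamus range was animal 4, which was the highest ret/wt thalamus library for 22 genes. With ret/ret animal 1 left out, 26 of 35 genes were higher in ret/ret thalamus (median 0.25) and 29 of 33 in cortex (median 0.30). By role, the thalamus medians were then 0.55 for the IFIT family, 0.36 for the ISG15 system, 0.17 for transcription factors and -0.0092 for antiviral proteins. In cortex they were 0.73, 0.76, 0.020 and 0.59 in the same order. At an unadjusted p under 0.05, 4 genes were higher in thalamus (11.4%, where 1.75% of all genes were higher at this level) and 6 in cortex (18.2%, where 2.6% were). The 4 in thalamus were Ifi44, Trim30a, Ifit3b and Ifit3, and the 6 in cortex were Dhx58, Ifitm3, Usp18, Parp14, Ifit1 and Ifit3. Over animals it was 6 genes (16.2%, where 2.58% of all genes were). Leaving out ret/ret animal 2 instead gave 13 in thalamus (4.12% of all genes) and 22 over animals (3.88%). Leaving out ret/wt animal 4 gave 12 in thalamus (6.06% of all genes), 7 in cortex (2.14%) and 14 over animals (4.08%).

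Summed markers of some cell types were also highest in these libraries, and others were not. In ret/ret cortex the pericyte sum was highest in animal 2 and the sum of border macrophage markers (6 genes) in animal 4. The T and NK cell sum there was lowest in animal 1, at 6.22 CPM. Summed endothelial markers (10 genes) were 494 CPM in cortex of ret/ret animal 1 against 261 to 318 CPM in the other ret/ret cortex libraries and 158 to 244 CPM in ret/wt. In thalamus they were 604 CPM in ret/ret animal 1 and 474 CPM in ret/wt animal 4, against 283 to 351 CPM in the other ret/ret and 229.8 to 257 CPM in the other ret/wt libraries. These are the same libraries in which the interferon-stimulated genes stood highest within their groups. Ret/ret thalamus of animals 2 and 4 had endothelial sums of 349 and 351 CPM, but medians of -0.15 and 0.70 for the 37 genes. In ret/wt cortex the endothelial sum was highest in animal 1 and the median of the 37 genes in animal 2. All 10 endothelial genes were higher in ret/ret thalamus (median 0.49), 1 at an unadjusted p under 0.05, and 7 were without ret/ret animal 1 (median 0.089), 0 at that level. In cortex 8 of 10 were higher (median 0.68), 4 at that level, and 1 was lower at that level. Without ret/ret animal 1, 8 of 10 were still higher in cortex (median 0.41), 3 at that level, and 1 was lower at that level. Of all genes, 47.1% were higher in thalamus and 51.9% in cortex. At that level 3.05% and 2.62% of all genes were higher and 0.88% and 1.14% lower. Without ret/ret animal 1, 1.75% were higher at that level in thalamus and 2.6% in cortex. In thalamus summed meningeal markers (7 genes) were also highest in these animals of each genotype, at 479 and 386 CPM, whereas in ret/ret cortex animal 1 had 134 CPM and animal 2 had 222 CPM. Red blood cell markers (5 genes) reached 122 CPM in thalamus of ret/ret animal 1, against 5.03 to 32.1 CPM in the other thalamus libraries. Microglia markers (12 genes) summed to 538 to 764 CPM in ret/ret thalamus and 349 to 432 CPM in ret/wt thalamus, without overlap. All 12 were higher in ret/ret thalamus, 9 with an unadjusted p under 0.05. The sums for cortex overlapped, at 308 to 653 CPM in ret/ret and 342 to 501 CPM in ret/wt. Of 8 astrocyte markers 7 were higher in ret/ret in each region (medians 0.35 in thalamus and 0.53 in cortex), 1 at that level in each. Over animals 4 of the 8 were higher at that level, where 3.62% of all genes were. Of 5 border macrophage markers tested, 1 was higher in ret/ret thalamus and 2 in cortex, where 1 was lower at that level. Summed pericyte markers (10 genes) were 53.2 to 116 CPM in ret/ret cortex and 105 to 159 CPM in ret/wt cortex, which overlap. Of 8 tested there, 5 were lower at an unadjusted p under 0.05, and 1 passed the adjusted threshold in edgeR's quasi-likelihood test, as 0.021% of all genes did. In thalamus ret/ret had lower values for all 10, 3 of which reached that unadjusted level, and the sums were again highest in ret/ret animal 1 (233 CPM, others 58.1 to 136) and ret/wt animal 4 (355 CPM, others 106 to 185). No gene of the endothelial, microglia, meningeal or red blood cell lists was at 0 in all 4 libraries of a group. T and NK cell markers (10 genes) summed to 1.51 to 17.5 CPM, B and plasma cell markers (6 genes) to 0.625 to 3.23 CPM, and neutrophil and monocyte markers (9 genes) to 0.519 to 6.93 CPM over all 16 libraries. In bulk tissue, more cells of a type and more RNA per cell cannot be told apart, and the part of these cells in the interferon-stimulated genes was not tested. With ret/ret animal 1 and ret/wt animal 4 both left out, an alternative added after seeing the data, 28 of 34 genes were higher in thalamus (median 0.41) and 27 of 33 in cortex (median 0.24). Then 7 genes in each region were higher at an unadjusted p under 0.05, 20.6% in thalamus, where 4.0% of all genes were higher at this level, and 21.2% in cortex, where 1.88% were. With ret/wt animal 3 and ret/ret animal 2 left out, the animals with cerebellar markers in cortex, the medians were 0.71 in thalamus and 0.74 in cortex, and 9 and 11 genes were higher at that level (2.98% and 2.75% of all genes). Over animals it was 12 (3.24%).

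**Figure D4:**
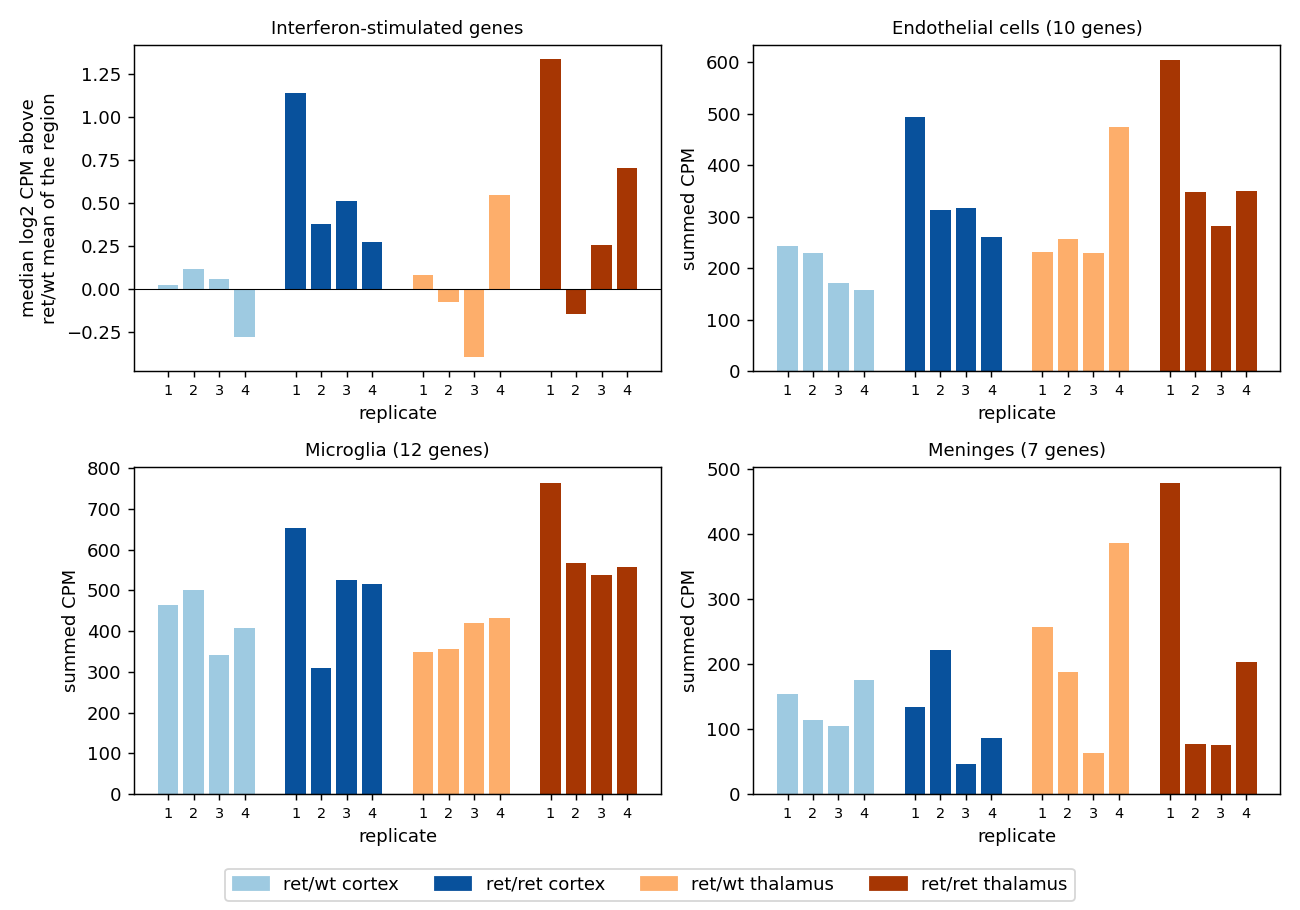
Bars for each library: upper left, the median over the 37 genes of log2 CPM above the ret/wt mean of the same region; the other panels, the summed CPM of endothelial, microglia and meningeal markers. Ret/ret replicate 1 has the tallest bar of its group for the interferon-stimulated genes and the endothelial markers in both regions, at 494 and 604 CPM for the latter, and ret/wt thalamus replicate 4 does so in its group.

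Whether the genotype difference itself differed between regions was asked with an interaction term over all 16 libraries. Of 36 genes tested 15 had a larger difference in thalamus, where 44.4% of all genes did, with a median of -0.18 on the log2 scale against -0.04 over all 15286 genes. With edgeR's quasi-likelihood test 0 genes had an adjusted p under 0.05 (0.0% of all genes), as with DESeq2 and limma-voom for these genes. At an unadjusted p under 0.05, 1 gene was lower, Rsad2 (0.713% of all genes were), and 0 were higher (0.89% of all genes). Its difference was -2.76 ± 1.19 (unadjusted p = 0.0334), and over the animals left out in turn it ran from -3.01 to -2.22. With a block for the animal it was -1.94 (unadjusted p = 0.0412), and 2 genes were under 0.05 in that fit, the other being Ifi27 at 0.59 (unadjusted p = 0.0401). That is 1 of 36 (2.78%) in each direction, where 0.955% of all genes were higher and 0.635% lower. Trim30a and Ifi44 had the largest differences toward thalamus, at 1.09 ± 0.59 and 1.15 ± 0.90, with unadjusted p-values of 0.0812 and 0.220.

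Between regions within a genotype, most of the genes were higher in thalamus than in cortex. In ret/ret 31 of 36 were, where 48.7% of all genes were, with a median log2 fold change of 0.37. In ret/wt 29 of 34 were, where 52.2% of all genes were, with a median of 0.48. With edgeR's quasi-likelihood test 0 of these had an adjusted p under 0.05 in either genotype, where 9.5% of all genes did in ret/ret and 12.6% in ret/wt. At an unadjusted p under 0.05, 2 genes were higher in ret/ret thalamus (5.56%, where 12.1% of all genes were) and 3 in ret/wt thalamus (8.82%, where 13% were). In this fit, which leaves out the pairing by animal, neither share reached that of all genes. None was lower at that level, against 14.6% and 14% of all genes. The thalamus libraries lay wholly above the cortex libraries for 1 gene in each genotype, Mx2, against 8.87% of all genes in ret/ret and 9.58% in ret/wt, and wholly below for 0, against 8.7% and 10.4%. The 2 in ret/ret were Ifi27, at 0.69 ± 0.24 on the log2 scale, and Mx2, at 1.21 ± 0.43. In ret/wt they were Dhx58 (1.33 ± 0.47), Lgals3bp (0.92 ± 0.36) and Rsad2 (1.93 ± 0.82). With a block for the animal, which the labels' pairing allows, 9 genes (25.0%) were higher at an unadjusted p under 0.05 in ret/ret, where 12.7% of all genes were. In ret/wt 4 were (11.8%), Rsad2, Cmpk2, Dhx58 and Lgals3bp, where 12.2% of all genes were. With pairing the share thus lay above that of all genes in ret/ret and not in ret/wt. Among the 9 were Ifit3 at 0.84 (unadjusted p = 0.0142) and Ifit3b at 0.86 (unadjusted p = 0.0194). Ifi27 had an adjusted p in ret/ret of 0.0499 with DESeq2, which called more genes over the whole table than edgeR, and 0.101 with edgeR. All of these were named after their values were seen.

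The parts of the pathway above these genes were read from lists that were written with earlier results of these data known. Of all genes, 47.1% were higher in ret/ret thalamus and 51.9% in cortex, and 3.05% and 2.62% at an unadjusted p under 0.05. Without ret/ret animal 1 the latter shares were 1.75% and 2.6%. At that level 0.88% and 1.14% of all genes were lower with every animal in. Of 21 interferon genes, 4 were in the table, and none was tested. Ifng, the type II interferon, had at most 5 counts, in ret/ret thalamus of animal 1, and 0 in each ret/wt library, while Ifnab, Ifne and Ifnz had at most 1 count in any library. Ifnb1 was not analysed here. Among receptors and signal relays, Irf9 and Stat2 included, 10 of 18 tested genes were higher in ret/ret thalamus (median 0.07) and 11 of 17 in cortex (median 0.13). The receptor genes Ifnar1 and Ifnar2 had log2 fold changes of 0.09 ± 0.14 and 0.39 ± 0.22 in cortex and 0.43 ± 0.31 and 0.47 ± 0.22 in thalamus. Among 28 genes of nucleic acid sensing and interferon induction, a list that also holds Irf7 and the 4 sensors above, 3 in thalamus were higher at an unadjusted p under 0.05, and without ret/ret animal 1 there was 1. They were Irf8, a factor of microglia and other myeloid cells (1.69 ± 0.58), Unc93b1, which carries toll-like receptors to endosomes (0.74 ± 0.28), and the DNA sensor Tlr9 (1.39 ± 0.54). In cortex 1 of 27 was higher at that level, Dhx58, and 1 lower, Ikbke, a kinase that activates interferon regulatory factors (-1.33 ± 0.58). No gene of the list was lower at that level in cortex once ret/ret animal 1 or ret/wt animal 4 was left out. Of other interferon-stimulated genes, 37 of 48 were higher in thalamus (median 0.33) and 38 of 45 in cortex (median 0.33), with 6 and 8 at an unadjusted p under 0.05, and 2 and 6 without ret/ret animal 1. The smallest p-values in thalamus were those of Shisa5 (0.87 ± 0.17), whose groups did not overlap, and Trim34a (1.90 ± 0.49). In cortex they were those of Gm4951 (2.49 ± 0.55), Rnf213 (0.61 ± 0.16) and Trim34a (1.39 ± 0.36). Genes best known from the interferon-gamma response, many of which type I interferon also induces, were higher in ret/ret in nearly every case. In cortex all 26 tested were higher (median 0.99), 16 with an unadjusted p under 0.05, and in thalamus 25 of 26 were (median 0.72), 9 of them at that level. These counts under 0.05 were 9 and 3 when ret/ret animal 1 was left out. The guanylate-binding protein Gbp2 had a log2 fold change of 1.54 ± 0.26 in cortex, the GTPase Iigp1 2.06 ± 0.40, and the antigen-presenting molecule H2-K1 1.25 ± 0.26, each without overlap of the groups. In thalamus Gbp3 had 1.68 ± 0.49 and Gbp5 1.46 ± 0.45, and B2m, the light chain of class I molecules, had 0.72 ± 0.25. With edgeR's quasi-likelihood test 0 of the genes on these pathway lists passed the adjusted threshold in either genotype comparison.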

How the data were processed

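RNA was measured in 16 mouse brain libraries by polyA-selected, stranded sequencing. The authors' deposited values are expected counts per gene from kallisto 0.44.0 on GRCm38.p6, per the submitters' processing notes; how transcripts were summed to genes, the annotation release and any length scaling are not given in the sources used here. Values were rounded to whole counts. Symbols were matched for 21581 of 21804 genes (99.0%), with coordinates from GENCODE on GRCm38.

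Each comparison was fitted on all genes with edgeR 4.0.16 (filterByExpr with a minimum count of 10, TMM scaling, quasi-likelihood test, Benjamini-Hochberg adjustment, threshold 0.05) in R 4.3.3. DESeq2 1.42.0 and limma 3.58.1 (voom), other scalings and filters, a replicate block and left-out animals were alternatives. CPM values were scaled by TMM over 16 libraries. The fits were tested on simulated data, in which genes changed by 2 on the log2 scale were recovered in 74.6% of cases for thalamus, 72.9% for cortex and 83.9% over animals. The 37 genes had smaller changes, with medians of 0.61 in thalamus and 0.74 in cortex, and recovery at such sizes was not tested. The simulation also held no effect shared by the libraries of an animal. Totals were 13415391 to 29135064 counts.

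The 37 genes and the lists were chosen with earlier results of these data known. Genes with an unadjusted p under 0.05 or without overlap in a genotype comparison are given with values. Each library is given for the 12 of these with the largest mean difference, and for Stat2, Irf9 and Irf7. Library values of Eif2ak2, Trim30a, Rtp4 and Zbp1, and members of a role with few others, were added after values were seen. Cortex and thalamus of the same animal are paired by the labels' animal names; the deviations of such pairs from their group means correlated at -0.0171 to 0.239. Each group holds 4 separate animals. The test of 1 gene of the receptor and relay list is not reported here.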

Additional observations from a re-analysis of the deposited data

Results flagged for a closer look

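In each of the 37 genes and 4 groups, the library farthest from the rest was compared with the range of its group. Of 148 such groups 21 had a library that stood apart by Dixon's criterion, which has a nominal chance share of about 5%. The groups reuse the same 16 libraries and are not independent, and the share over all genes was not taken. The 21 are therefore listed as values and not as an excess in these genes. In cortex, ret/ret animal 1 stood above its group for 6 genes. It had 4.70 CPM of Isg15 (others 1.12 to 1.64), 14.5 of Trim25 (7.56 to 8.03), 8.24 of Irf7 (2.19 to 2.42), 20.02 of Oasl2 (3.44 to 3.80), 11.3 of Bst2 (2.67 to 2.85) and 3.47 of Ifi35 (1.72 to 2.01). In thalamus the same animal stood above its group for Isg15 at 6.40 CPM (1.17 to 1.84), Oasl1 at 1.80 (0.269 to 0.489) and Oasl2 at 18.3 (4.75 to 6.97).

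The thalamus library of ret/wt animal 4 stood above its group for 6 genes. It held 32.4 CPM of Ifit3 (others 13.4 to 15.6), 4.13 of Usp18 (0.904 to 1.44), 0.983 of Oas2 (0.601 to 0.663), 7.67 of Bst2 (1.88 to 2.53), 22.1 of Ifitm3 (4.82 to 6.19) and 4.26 of Rtp4 (2.15 to 2.17). Its endothelial marker sum, 474 CPM, was also the highest of its group, and the part of vessel cells in these values was not tested. In cortex the library of that animal stood below its group for the RNA sensors Ifih1, at 4.14 CPM (6.89 to 7.35), and Ddx58, at 2.10 (4.85 to 5.21), and it held 1127 CPM of choroid plexus markers.

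The other 4 cases were single genes. Ret/ret thalamus of animal 2 held 26.7 CPM of Ifit2 (others 20.4 to 21.1) and 2.20 of Xaf1 (7.12 to 7.58). Ret/wt cortex of animal 2 held 7.82 CPM of Irf1 (4.52 to 4.58), and ret/wt thalamus of animal 1 held 0.172 CPM of Mx1 (0.8286 to 0.917).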

How the results depend on the processing

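Genes over the whole table past an adjusted p of 0.05 were 0 in thalamus, 3 in cortex, 2 over animals and 0 for the interaction, and DESeq2 called 37, 38, 80 and 4. The genes tested were 14767, 14288, 15505 and 15286 in the same order. Between regions there were 1398 of 14715 genes in ret/ret (2591 with DESeq2) and 1813 of 14442 in ret/wt. All 16 libraries in a single fit gave 3 in thalamus and 7 in cortex. Leaving out ret/wt animal 3 and ret/ret animal 2 gave 1 in cortex and 0 over animals, and leaving out ret/ret animal 1 and ret/wt animal 4, chosen after seeing the data, gave 0 in cortex. Leaving out each animal gave 0 to 2 in cortex, 1 to 2 over animals, 109 to 2564 for the region in ret/ret and 690 to 1678 for the region in ret/wt. Of the interferon-stimulated genes DESeq2 called 1 in thalamus, 2 over animals and 1 between regions in ret/ret. Their number at an unadjusted p under 0.05 ran with each animal left out from 4 to 13 in thalamus, 6 to 14 in cortex and 6 to 22 over animals, and their cortex median from 0.30 to 0.80. In the thalamus fits that gave 4 and 13, 1.75% and 4.12% of all genes were higher at that level. The share was 2.6% for the 6 in cortex, and 2.58% and 3.88% for the 6 and 22 over animals. For the 14 in cortex, without ret/ret animal 4, it is not given here. Without ret/ret animal 1 and ret/wt animal 4 the number was 7 in cortex (1.88% of all genes), with a median of 0.24.

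The replicate block across genotypes gave 0 genes in cortex and 0 over animals, and 6, 10 and 10 interferon-stimulated genes under 0.05 in thalamus, in cortex and over animals, all higher, where 2.32%, 2.3% and 3.21% of all genes were higher. Animals with the same number in the 2 genotypes are different animals and did not deviate together (r from -0.125 to 0.151).

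Single genes kept their side of 0 and of the threshold in 1016 cases, passed it in 3 more and turned in direction in 21; the cause was not tested. For the genes named by rule, the log2 fold changes that turned are given over the animals left out in turn, with the animal whose absence turned them. In thalamus, without ret/ret animal 1, Ifitm3 (-0.022 to 1.37), Irf7 (-0.056 to 0.88) and Isg15 (-0.084 to 1.12) were lower, and Rsad2 (-1.29 to 0.34) was higher without ret/wt animal 2. In cortex Ifi44 (-0.36 to 1.03) turned without ret/ret animal 1 and Stat2 (-0.069 to 0.31) without ret/ret animal 2. Trim30a (-0.24 to 0.49) turned in cortex without ret/ret animal 1 and, at -0.063, -0.012 and -0.16, without ret/wt animals 1, 3 and 4. Over animals, Rsad2 (-0.33 to 1.18) turned without ret/ret animal 1 and without ret/wt animals 3 and 4 (-0.13 and -0.10), and Stat2 was at -0.016 without ret/ret animal 2. For the interaction, Ifit3 (-0.18 to 0.72) turned without ret/wt animal 3 and Usp18 (-0.78 to 0.10) without ret/wt animal 4. Interaction values of other genes named by rule also changed sign over the animals left out, and the 21 cases do not include them. These were Ifitm3 (-0.89 to 0.43), Parp9 (-0.47 to 0.30), Irf9 (-0.082 to 0.37), Stat2 (-0.15 to 0.25) and Eif2ak2 (-0.038 to 0.36), without the animal being given. With both ret/ret animal 1 and ret/wt animal 4 left out, Irf7 was at -0.046 in thalamus, and Irf9, Ifi44, Trim30a and Stat2 were at -0.012, -0.68, -0.47 and -0.044 in cortex. Of the other genes, Ifi35, Lgals3bp and Ddx58 (down to -0.15, -0.089 and -0.061) were lower in thalamus without ret/ret animal 1, as were Irf1 and Ifi35 in cortex (-0.11 and -0.027). Cmpk2 turned in thalamus without ret/wt animal 4 or ret/ret animal 3, Dtx3l without ret/wt animal 4 and Mx1 without ret/ret animal 2. Over animals Ifi35 turned without ret/ret animal 1, Cmpk2 without ret/wt animal 4 and Mx1 without ret/wt animal 1. Between regions, leaving out both ret/wt animal 3 and ret/ret animal 2 equals leaving out a single animal, so it was not run apart. Depth limits Oas3 and Oasl1, which had too few counts to be tested in either region alone.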
